A study of Mus musculus with 12 samples.

Results

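The transcripts described here belong to 9 genes that mark or set position along the small intestine. They are the transcription factor genes Osr2, Cdx1, Cdx2, Gata4, Gata6 and Hnf4a, the receptor gene Cubn, and the peptide genes Guca2a and Guca2b. Members were chosen by gene symbol, and every probe set that the platform annotation gives to 1 of these symbols was taken, which made 9 of the 12393 genes on the array and 16 of the 22626 probe sets tested. No member was missing from the array. Earlier results of these data for Osr2, Cubn and Guca2a in the genotype comparisons were in view when the genes were chosen, so genotype differences are given as descriptions with no test.

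The study asked how jejunal transcripts respond to quercetin, a plant flavonol, in mice with and without NADPH-cytochrome P450 reductase (POR), the enzyme that passes electrons to microsomal cytochromes P450. All mice were C57BL/6 males of 6 to 8 weeks, labelled wild-type or POR-null, and all were first kept on a powdered soya-free RM3 diet for 14 days. The 4 groups were wild-type control, wild-type quercetin, POR-null control and POR-null quercetin. Control mice stayed on the RM3 diet and quercetin mice received it with 6.2 g quercetin per kg (7 mg per mouse) for 24 hours. The tissues in which the reductase was deleted are not stated in the labels, and the targeted gene was not analysed here. Each group had 3 pools, each of RNA from 3 mice on 1 Affymetrix 430A array, so that n = 3 pools throughout and single mice are not seen. The tissue was scraped epithelium of the jejunum, taken as the middle one when the small intestine is cut into 3 equal lengths. The labels do not say from which stretch of that part a pool came.

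Position along the small intestine is held by a network of transcription factors in the epithelium. GATA4 is present in the duodenum and jejunum and low in the ileum, where its absence allows ileal genes such as those for bile acid uptake to be active. CDX2 and CDX1 are caudal-type homeobox factors that keep the epithelium intestinal, and HNF4A is a nuclear receptor that drives enterocyte genes for fat and apolipoprotein handling along the whole gut. Guanylin (Guca2a) and uroguanylin (Guca2b) are peptides secreted into the lumen that activate guanylate cyclase C, and uroguanylin is the more proximal of the pair. Cubilin (Cubn) is the apical receptor for intrinsic factor bound to vitamin B12 and is known for its high level in the ileum. OSR2 is an odd-skipped related zinc finger factor studied mostly in palate, limb and kidney development.

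The bases just before the start are shown for 4 of the 5 member genes whose promoter windows were used. Osr2, the member that passed a test below, is not among them. Guca2a and Guca2b are neighbours on chromosome 4 with 0 annotated genes between them and encode the related peptides of the pair, Cubn differed in the same direction in both its probe sets, and Cdx2 was higher in every POR-null pool than in every wild-type pool on both diets. Each run is the 250 bases before the annotated start, read 5′ to 3′ on the strand of the gene, from RefSeq on GRCm38.p6. Capitals mark a match to AGATAA, the GATA motif, or to TTATCT, which is its reverse complement.

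Guca2a promoter (chr4:119637482-119637731, plus strand): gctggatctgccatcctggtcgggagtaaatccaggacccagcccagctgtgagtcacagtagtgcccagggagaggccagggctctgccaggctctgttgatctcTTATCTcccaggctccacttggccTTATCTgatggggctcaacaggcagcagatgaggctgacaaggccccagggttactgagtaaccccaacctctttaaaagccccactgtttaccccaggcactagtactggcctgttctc
Guca2b promoter (chr4:119658946-119659195, minus strand): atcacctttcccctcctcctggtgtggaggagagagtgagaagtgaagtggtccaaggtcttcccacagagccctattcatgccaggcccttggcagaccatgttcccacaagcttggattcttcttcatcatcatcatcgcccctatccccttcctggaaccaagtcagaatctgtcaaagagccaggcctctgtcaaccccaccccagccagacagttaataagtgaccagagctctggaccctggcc
Cubn promoter (chr2:13491877-13492126, minus strand): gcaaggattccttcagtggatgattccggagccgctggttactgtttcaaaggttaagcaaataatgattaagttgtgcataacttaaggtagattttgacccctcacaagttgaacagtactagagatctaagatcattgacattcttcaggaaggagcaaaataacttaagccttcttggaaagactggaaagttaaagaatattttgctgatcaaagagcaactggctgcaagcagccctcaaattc
Cdx2 promoter (chr5:147307250-147307499, minus strand): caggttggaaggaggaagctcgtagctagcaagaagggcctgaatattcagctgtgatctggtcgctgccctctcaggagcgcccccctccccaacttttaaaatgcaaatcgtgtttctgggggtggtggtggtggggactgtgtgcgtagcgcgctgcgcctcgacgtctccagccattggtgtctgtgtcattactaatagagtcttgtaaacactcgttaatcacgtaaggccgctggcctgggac

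The guanylin window held 2 matches to AGATAA, both on the minus strand, starting 144 and 120 bases before the gene's start. The windows of Guca2b, Cubn and Cdx2 held none. Of 32851 mouse promoter windows of the same length, 9.99% held AGATAA on either strand. Searches on both strands for TTTATG (CDX, in 10.8% of windows) and for CAAAGTCCA (HNF4, in 0.384%) found no match in these windows. Hnf4a has a pair of annotated starts, and the window of the upstream start (chr2:163506607-163506856, plus strand) held 1 AGATAA, 52 bases before the start, while that of the downstream start (chr2:163546905-163547154, plus strand) held none of the 3 motifs. These are matches of letters in a window, not binding sites.

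The 12 arrays were alike, with medians of 5.94 to 6.01 log2 units and correlations across probe sets of 0.989 to 0.995, and any pair of them was equal, at the 2 decimals deposited, in at most 2.84% of probe sets. Pools of 1 group typically differed by an SD of 0.12 (median over probe sets). Markers of enterocytes were high in every group (Fabp2 13.60, Krt20 13.02 and Epcam 12.39 as means over pools), and transcripts of neighbouring segments were low (the pancreatic and duodenal factor Pdx1 4.66, the colonic Hoxb13 4.46, and the ileal bile acid transporter Slc10a2 3.61). The ileal bile acid binding protein Fabp6 varied widely between pools labelled jejunum. It ranged from 5.83 to 10.72 in wild-type control pools, from 8.96 to 12.18 in wild-type quercetin pools, from 8.30 to 10.33 in POR-null control pools and from 6.69 to 9.57 in POR-null quercetin pools. Smooth muscle markers stood highest in pool 3 of the wild-type control group and in pool 1 of each POR-null group. In scraped tissue, fewer cells of a type and less RNA per cell cannot be told apart.

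**Figure D1:**
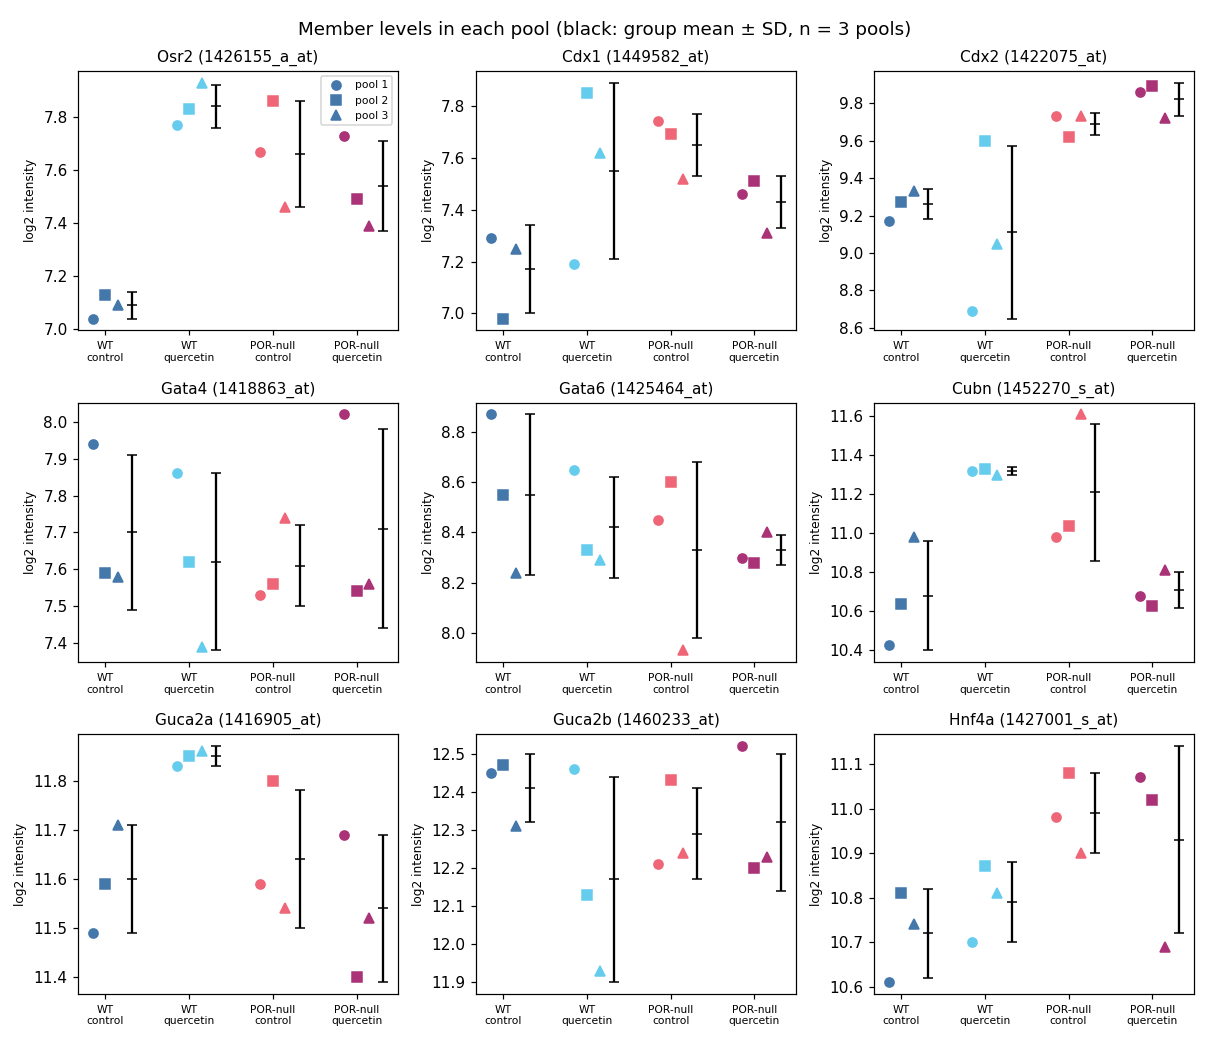
Levels of the 9 members in each of the 12 pools, 1 panel per gene (probe set with the highest mean), on a log2 intensity axis that does not start at 0 and differs between panels. Coloured points are pools (circle 1, square 2, triangle 3), and the black bar beside them is the group mean ± SD (n = 3 pools). The 3 wild-type control pools of Osr2 lie at 7.04 to 7.13, below the other 9 pools, and all 6 POR-null pools of Cdx2 lie above all 6 wild-type pools.

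Osr2 rose with quercetin in wild-type pools. It was 1.69-fold higher and was the 1 member probe set of 16 to pass the test of the diet in wild-type mice (limma, Benjamini-Hochberg adjusted p under 0.05 over all probe sets), where 3 of 22626 probe sets or 0.0133% passed. In POR-null pools 0 of 16 passed by the same limma test, as did 0 of 22626 probe sets (0%). The median absolute log2 difference of the 16 member probe sets was 0.23 in wild-type pools, against 0.08 over all probe sets, and 0.08 in POR-null pools against 0.07 over all. Before adjustment 7 member probe sets and 1972 of all had a limma p under 0.05 in wild-type pools, and 2 and 910 had it in POR-null pools. These values of the members are not independent of their choice. The genotype differences of Osr2, Cubn and Guca2a that were in view rest on the same pools.

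Osr2 was read by 1 probe set (1426155_a_at). Its log2 intensity was 7.04, 7.13 and 7.09 in wild-type control pools 1 to 3, and 7.77, 7.83 and 7.93 in wild-type quercetin pools. POR-null control pools were at 7.67, 7.86 and 7.46, and POR-null quercetin pools at 7.73, 7.49 and 7.39. The wild-type control pools lay within 0.09 of each other and below all other pools, whereas the other 3 groups lay between 7.39 and 7.93. In order of the mean, wild-type quercetin (7.84 ± 0.08, SD, n = 3) was followed by POR-null control (7.66 ± 0.20), POR-null quercetin (7.54 ± 0.17) and wild-type control (7.09 ± 0.05), and of these neighbours only the last did not overlap with the group above it.

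The quercetin difference of Osr2 in wild-type mice was 0.76 ± 0.11 (log2, SE of the fit; limma adjusted p = 0.0322), with all 3 quercetin pools above all 3 control pools. It is no independent support for the choice of Osr2, since it uses the wild-type control pools on which the genotype difference in view also rested. It was not called with the arrays centred on their medians (0.72, adjusted p = 0.0914) or with the levels of other segment markers as a covariate (0.74, adjusted p = 0.339), in a range of adjusted p from 0.0108 to 0.339 over all alternatives. Nor was it called without any 1 of wild-type control pools 1, 2 or 3, of wild-type quercetin pools 2 or 3, of pool 1 of the POR-null controls or of pool 2 of the POR-null mice on quercetin (adjusted p from 0.0517 to 0.328, with differences of 0.71 to 0.78). In POR-null mice the diet difference was -0.13 ± 0.11 (limma adjusted p = 0.995), and over both genotypes it was 0.32 ± 0.08 (limma adjusted p = 0.547, where 0.00884% of all probe sets and 0 of 16 member probe sets passed).

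The T cell markers and the distal segment markers had the same order of group means as Osr2. The other cell type lists did not, and proximal markers were highest in wild-type control. All 7 T cell markers, transcripts of the lymphocytes that lie in this epithelium, were above 0 in the wild-type quercetin difference, with a median of 0.40 and 0 of 7 called. Their summed linear level was 2491 to 2792 in wild-type control pools, 3833 to 4017 in wild-type quercetin, 3312 to 4158 in POR-null control and 3087 to 3893 in POR-null quercetin pools. None of the T cell markers was near the floor of the array (the lowest, Cd8a, had a mean of 6.80), and Ccl5 gave the largest test statistic (9.59 in wild-type control against 10.45 in wild-type quercetin, as group means). All 9 measured distal markers that are no members were above 0 as well. Their part in the Osr2 result was not tested beyond the covariate above.

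On the control diet, Osr2 was higher in POR-null than in wild-type pools by 0.58 ± 0.11, and on quercetin the same difference was -0.31 ± 0.11, with no overlap of pools either way. Both are values of the comparisons that chose the gene and are given as a description.

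The caudal factors differed from each other. Cdx1 (1449582_at) had log2 intensities of 7.29, 6.98 and 7.25 in wild-type control, 7.19, 7.85 and 7.62 in wild-type quercetin, 7.74, 7.69 and 7.52 in POR-null control and 7.46, 7.51 and 7.31 in POR-null quercetin pools. Wild-type control was the lowest group (7.17 ± 0.17) and 1 wild-type quercetin pool, pool 1, lay among its values. The diet difference of Cdx1 was 0.38 ± 0.14 in wild-type and -0.22 ± 0.14 in POR-null mice, and neither passed (limma adjusted p = 0.440 and 0.995). Without wild-type quercetin pool 2 the wild-type value of Cdx1 was 0.23.

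Cdx2 was higher in POR-null than in wild-type pools, which is given as a description with no test. In its brighter probe set (1422075_at) wild-type pools had 9.17, 9.27 and 9.33 on the control diet and 8.69, 9.60 and 9.05 on quercetin, and POR-null pools had 9.73, 9.62 and 9.73 on the control diet and 9.86, 9.89 and 9.72 on quercetin. In the other (1422074_at) the values were 6.98, 7.03 and 6.68, then 6.30, 7.10 and 6.72, then 7.35, 7.58 and 7.64, then 7.49, 7.53 and 7.38, in the same order of groups. Every POR-null pool stood above every wild-type pool in both probe sets, and wild-type quercetin pools were the most spread of the 4 groups (SD 0.46 and 0.40). In the brighter probe set the closest pools of the genotypes were wild-type quercetin pool 2 at 9.60 and POR-null control pool 2 at 9.62. POR-null minus wild-type was 0.44 ± 0.16 and 0.63 ± 0.16 on the control diet and 0.71 ± 0.16 and 0.76 ± 0.16 on quercetin, or 1.35-fold to 1.69-fold. For the brighter probe set on quercetin it was 0.95 without wild-type quercetin pool 2 and 0.50 without pool 1. Diet differences of Cdx2 lay between -0.19 and 0.13 in both genotypes, none past the test.

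Transcripts that CDX2 is known to act on gave small differences. Of 8 such genes 5 were measured, with a median difference of 0.05 on the control diet and -0.07 on quercetin (over all genes 0.01 and -0.01). Villin (Vil1), a microvillus protein, was the one with the largest test statistic on the control diet (0.16 ± 0.07), and the guanylate cyclase C gene Gucy2c on quercetin (-0.24 ± 0.11). None of the 5 passed in any diet comparison.

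The GATA factors gave no call. Gata4 had 7.94, 7.59 and 7.58 in wild-type control, 7.86, 7.62 and 7.39 in wild-type quercetin, 7.53, 7.56 and 7.74 in POR-null control and 8.02, 7.54 and 7.56 in POR-null quercetin pools (1418863_at). Each group overlapped all others, and 4 differences by diet or genotype were between -0.09 and 0.10, with SE of 0.15. In the dimmer probe set (1418864_at) the range over pools was 5.82 to 6.57 and the same 4 differences were between -0.05 and 0.05. The probe sets did not track each other from pool to pool (r = 0.14 after removing group means, 12 pools).

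Gata6, the family member expressed along the whole intestine, had 8.87, 8.55 and 8.24 in wild-type control, 8.65, 8.33 and 8.29 in wild-type quercetin, 8.45, 8.60 and 7.93 in POR-null control and 8.30, 8.28 and 8.40 in POR-null quercetin pools (1425464_at). Wild-type control pool 1 was the highest and POR-null control pool 3 the lowest of the 12, and all 4 groups overlapped. In its other probe set (1425463_at) pools ranged from 7.11 to 7.84, and POR-null quercetin pools (7.11 to 7.14) lay just below POR-null control pools (7.19 to 7.45), a difference of -0.17 ± 0.14 (limma adjusted p = 0.995). The pair of probe sets tracked each other within groups (r = 0.80). Among 8 genes known to respond to loss of GATA4 in the jejunum, 7 were measured and none passed. Their median quercetin difference was -0.22 in wild-type and -0.15 in POR-null pools, and the largest test statistics in wild-type pools were those of the ileal Fabp6 (3.17 ± 1.10) and Slc51a (0.32 ± 0.12) and the proximal Fabp1 (-0.42 ± 0.18). All 7 are also segment markers, described below, some distal and some proximal, so that a median over them mixes opposite directions. Their mean centred level was -0.11 in wild-type control and 0.28 in wild-type quercetin pools.

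Hnf4a was read by 4 probe sets that differed in pattern. In the brightest (1427001_s_at) the values were 10.61, 10.81 and 10.74 in wild-type control, 10.70, 10.87 and 10.81 in wild-type quercetin, 10.98, 11.08 and 10.90 in POR-null control and 11.07, 11.02 and 10.69 in POR-null quercetin pools. All 3 pools of POR-null mice on the control diet lay above all wild-type pools, and POR-null quercetin pool 3 lay among the latter. In 1421983_s_at the wild-type control pools (8.71 to 8.92) were below the other 9 (8.94 to 9.28), and in 1450447_at the same held (8.05 to 8.28 against 8.29 to 8.57). In 1427000_at wild-type quercetin pools had the lowest mean (7.80 to 7.82, against 7.78 to 7.94 in wild-type control).

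The diet difference of Hnf4a in wild-type pools was 0.26 ± 0.09 and 0.25 ± 0.09 in 1421983_s_at and 1450447_at, 0.07 ± 0.10 in the brightest and -0.05 ± 0.08 in 1427000_at, and none passed (limma adjusted p of 0.425 to 0.894). POR-null minus wild-type on the control diet was above 0 in all 4, from 0.13 ± 0.08 to 0.38 ± 0.09, and on quercetin it was 0.02 ± 0.09 to 0.24 ± 0.08. The 4 probe sets agreed little with each other within groups, with r from -0.52 to 0.74 over their 6 pairs. A probe set named with _s_ can match transcripts of more than 1 gene, and which Hnf4a transcripts each reads was not worked out. Of 9 genes that HNF4A acts on 8 were measured, with medians of -0.15 and -0.03 for quercetin in wild-type and POR-null pools and none called. Creb3l3, a factor of fasting lipid metabolism, had the largest test statistic of these in wild-type pools (-0.27 ± 0.11).

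Other intestinal transcription factors gave no call either. Of 20 listed 15 were measured, 10 of them above 0 for quercetin in wild-type pools (median 0.10) and 7 in POR-null pools (median 0.00), against 57.1% and 49.2% of all genes above 0. Klf5, a crypt Krüppel-like factor, had the largest test statistic in wild-type pools (0.25 ± 0.08), and Gata5, the third GATA factor of the intestine, in the genotype difference on quercetin (-0.55 ± 0.16).

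Cubn had the largest differences of the effector genes. In its brighter probe set (1452270_s_at) the values were 10.43, 10.64 and 10.98 in wild-type control, 11.32, 11.33 and 11.30 in wild-type quercetin, 10.98, 11.04 and 11.61 in POR-null control and 10.68, 10.63 and 10.81 in POR-null quercetin pools. The wild-type quercetin pools lay within 0.03 of each other and above every wild-type control pool, and POR-null quercetin pools lay below every POR-null control pool. The other probe set (1426990_at) had 9.62, 9.95 and 9.89, then 10.44, 10.38 and 10.49, then 9.94, 10.15 and 10.89, then 9.77, 9.73 and 10.21, and there the POR-null groups overlapped. In both probe sets the order of the means was wild-type quercetin, POR-null control, POR-null quercetin and wild-type control, and the first pair and the last pair overlapped in both.

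The quercetin difference of Cubn was 0.63 ± 0.15 and 0.62 ± 0.19 in wild-type pools (limma adjusted p = 0.300 and 0.374) and -0.50 ± 0.15 and -0.42 ± 0.19 in POR-null pools (limma adjusted p = 0.995 for both), and none passed. Without POR-null control pool 3 the POR-null value was -0.30 for 1452270_s_at and -0.14 for 1426990_at. POR-null minus wild-type was 0.53 ± 0.15 and 0.51 ± 0.19 on the control diet and -0.61 ± 0.15 and -0.53 ± 0.19 on quercetin, given as a description. Without POR-null control pool 3 the control-diet value was 0.33 for 1452270_s_at and 0.22 for 1426990_at. The probe sets tracked each other (r = 0.84 within groups). The T cell and distal markers given beside Osr2 had the same order of groups as Cubn too. With the levels of other segment markers as a covariate, the wild-type quercetin difference of 1452270_s_at was 0.40 ± 0.20 and the POR-null one -0.45 ± 0.15. The part of the T cell markers was not tested.

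The partners of cubilin gave no call. All 7 listed genes of the cubilin complex and vitamin B12 handling were measured and none was called. Amnionless (Amn), which carries cubilin to the apical membrane, had group means of 10.36, 10.40, 10.64 and 10.35 in wild-type control, wild-type quercetin, POR-null control and POR-null quercetin. It differed by diet by -0.30 ± 0.10 in POR-null pools (limma adjusted p = 0.995) and by genotype by 0.28 ± 0.10 on the control diet. In wild-type pools the largest test statistic of the list was that of Lmbrd1, a lysosomal vitamin B12 exporter (-0.12 ± 0.09).

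The guanylin pair gave no call, and in wild-type pools the sign of the Guca2b difference depended on whether segment markers were a covariate. Guca2a (1416905_at) had 11.49, 11.59 and 11.71 in wild-type control, 11.83, 11.85 and 11.86 in wild-type quercetin, 11.59, 11.80 and 11.54 in POR-null control and 11.69, 11.40 and 11.52 in POR-null quercetin pools. Wild-type quercetin pools were the 3 highest of the 12, and the other groups overlapped. Guca2b (1460233_at) had 12.45, 12.47 and 12.31, then 12.46, 12.13 and 11.93, then 12.21, 12.43 and 12.24, then 12.52, 12.20 and 12.23. Its lowest values were wild-type quercetin pools 2 and 3, while pool 1 of that group was among the highest, so all its groups overlapped.

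The quercetin difference in wild-type pools was 0.25 ± 0.10 for Guca2a (limma adjusted p = 0.469) and -0.24 ± 0.12 for Guca2b (limma adjusted p = 0.622), neither past the test. For Guca2b it was -0.12 without wild-type quercetin pool 3, -0.38 without pool 1 of that group, and 0.07 with the levels of other segment markers as a covariate. In POR-null pools the difference was -0.11 ± 0.10 for Guca2a and 0.02 ± 0.12 for Guca2b. On quercetin, POR-null minus wild-type was -0.31 ± 0.10 for Guca2a, every POR-null pool being below every wild-type pool, and in Guca2b the genotype difference was 0.14 ± 0.12. Of the 7 listed genes of the pathway below these peptides, 6 were measured and none was called. The receptor gene Gucy2c had the largest test statistic in wild-type pools (0.33 ± 0.11, limma adjusted p = 0.425), followed by the kinase gene Prkg2 (-0.43 ± 0.17).

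**Figure D2:**
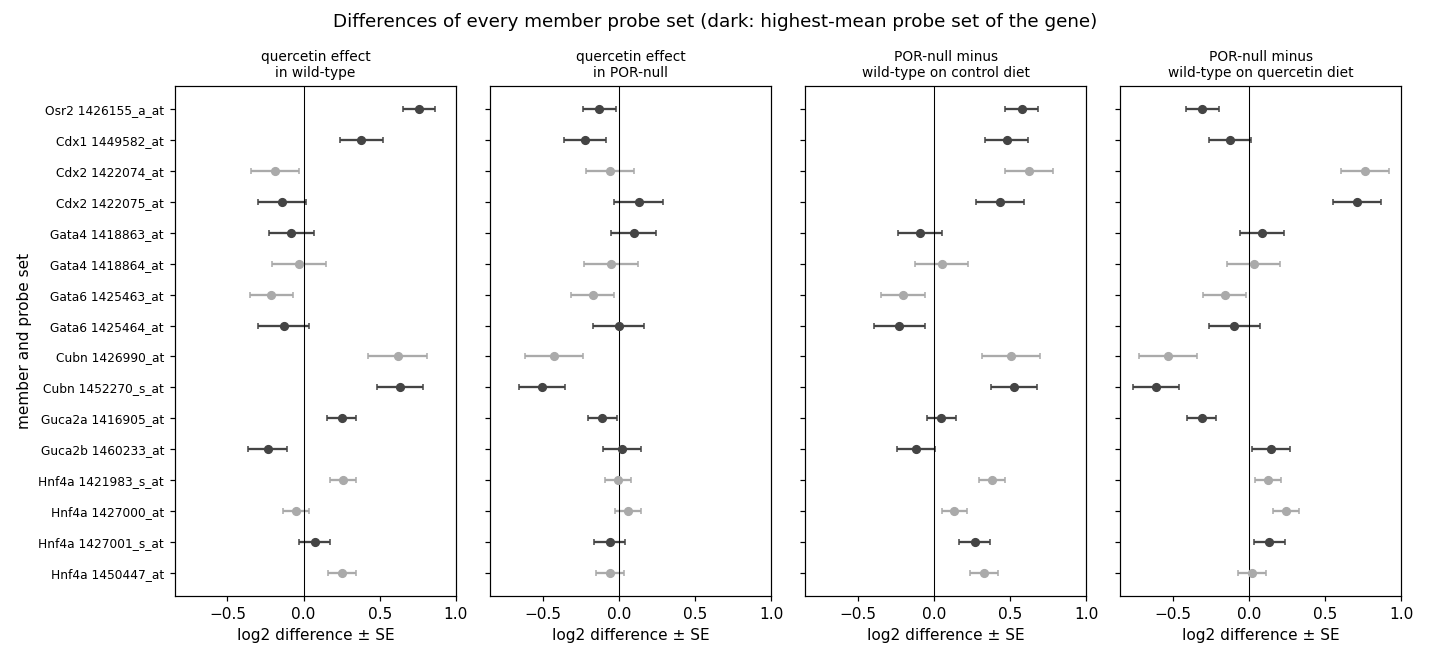
Log2 differences ± SE of the fit (horizontal axis) for each of the 16 member probe sets (vertical axis) in 4 comparisons, with the probe set of highest mean per gene in dark and others in grey. Osr2 and both Cubn probe sets lie right of 0 for quercetin in wild-type pools (0.62 to 0.76), and both Cdx2 probe sets lie right of 0 in both genotype comparisons (0.44 to 0.76).

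Separation of pools can be set against all probe sets. With quercetin in wild-type mice, 6 of 16 member probe sets had pools that did not overlap (Osr2, both of Cubn, Guca2a and 2 of Hnf4a), all higher, and 11.6% of all probe sets did so. In POR-null mice 3 did (Cdx1, Gata6 1425463_at and Cubn 1452270_s_at), all lower, against 9.06%. Between genotypes 7 did on the control diet (Osr2, Cdx1, both of Cdx2 and 3 of Hnf4a), all higher in POR-null, against 9.44%, and 7 on quercetin, against 9.18%. On quercetin the 3 higher in POR-null were both of Cdx2 and Hnf4a 1427000_at, and the 4 lower were Osr2, both of Cubn and Guca2a. Probe sets of 1 gene are not independent, and the genotype counts include the values by which members were chosen. All comparisons share groups of pools, so the diet counts are not independent of that choice either.

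Segment markers that are not members were taken as signs of the position sampled. A different stretch sampled and a change of the markers themselves with diet or genotype cannot be told apart in them. This also holds where they serve as a covariate. A segment score was the mean of 9 distal markers (of 12 listed) minus the mean of 14 proximal markers (of 16 listed), each gene centred over the 12 arrays. It was -1.12, -0.79 and 0.20 in wild-type control, -0.18, 0.75 and 1.02 in wild-type quercetin, 0.25, 0.07 and 0.14 in POR-null control and -0.30, -0.19 and 0.17 in POR-null quercetin pools. Wild-type groups had the widest spread of pools (SD 0.69 and 0.63, against 0.09 and 0.24 in POR-null groups), and all 4 groups overlapped at least 1 other. Of the distal markers, 9 of 9 were above 0 for quercetin in wild-type pools (median 0.46, largest test statistic for the brush border protease Mep1a, 0.57 ± 0.12) and 0 of 9 in POR-null pools (median -0.18). Of the proximal markers, 1 of 14 was above 0 in wild-type pools (median -0.29) and 5 of 14 in POR-null pools (median -0.03). None was called, including the purine enzyme gene Ada at -1.04 ± 0.18 (limma adjusted p = 0.120). The summed linear level of the proximal markers was 42672 to 50393 in wild-type control and 30678 to 45108 in wild-type quercetin pools, and that of the distal markers 7926 to 10970 and 9956 to 15692.

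Within groups, 3 members had a negative correlation with this score before adjustment. The score includes the 7 measured genes known to respond to loss of GATA4, so it is no reading of position independent of Gata4. Each member's value and the score had their group means removed, both come from the same array, and p-values are from exact permutation within groups (1296 relabellings, two-sided, smallest possible p 0.00077), adjusted over the 9 members. Guca2b, the proximal peptide, had r = -0.75 over 12 pools (exact permutation p = 0.0069, adjusted 0.0625; rho = -0.74, exact permutation p = 0.033, adjusted 0.201) and -0.68 without the 2 pools farthest from the median score. Gata4 had r = -0.69 (exact permutation p = 0.045, adjusted 0.134; rho = -0.62, exact permutation p = 0.046, adjusted 0.201) and -0.66 without those pools. Gata6 had r = -0.64 (exact permutation p = 0.043, adjusted 0.134; rho = -0.59, exact permutation p = 0.09, adjusted 0.201) and -0.43 without them. None of the 9 passed the adjusted threshold, although Guca2b did with quantile normalization (r = -0.77, exact permutation adjusted p = 0.0347), and Guca2b and Gata4 did with the mean of all probe sets of a gene (-0.75 and -0.82, exact permutation adjusted p = 0.0312 for both). With bile acid genes such as Fabp6 left out of the distal markers, r was -0.58 for Guca2b and -0.65 for Gata4. Neither passed (exact permutation adjusted p = 0.269 and 0.257). Over all alternatives the adjusted p of permutation within groups ran from 0.0312 to 0.300 for Guca2b and to 0.403 for Gata4.

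For the other members the correlations within groups were weaker. Osr2 had r = 0.05 (exact permutation p = 0.82, adjusted 0.819; rho = 0.07, exact permutation p = 0.82), although over 12 pools with group means kept it was 0.66. Cubn had r = 0.45 (exact permutation p = 0.12, adjusted 0.273; rho = 0.49, exact permutation p = 0.088) and 0.71 with group means kept. Cdx2 had r = 0.48 and Cdx1 0.45, falling to 0.21 and 0.11 without the 2 farthest pools, so that both rest on those pools. Guca2a had 0.29 and Hnf4a 0.08. With the score as a covariate the quercetin difference of Cubn 1452270_s_at and of Cdx2 in wild-type pools kept its sign, whereas those of Gata4, Gata6 and Guca2b turned.

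**Figure D3:**
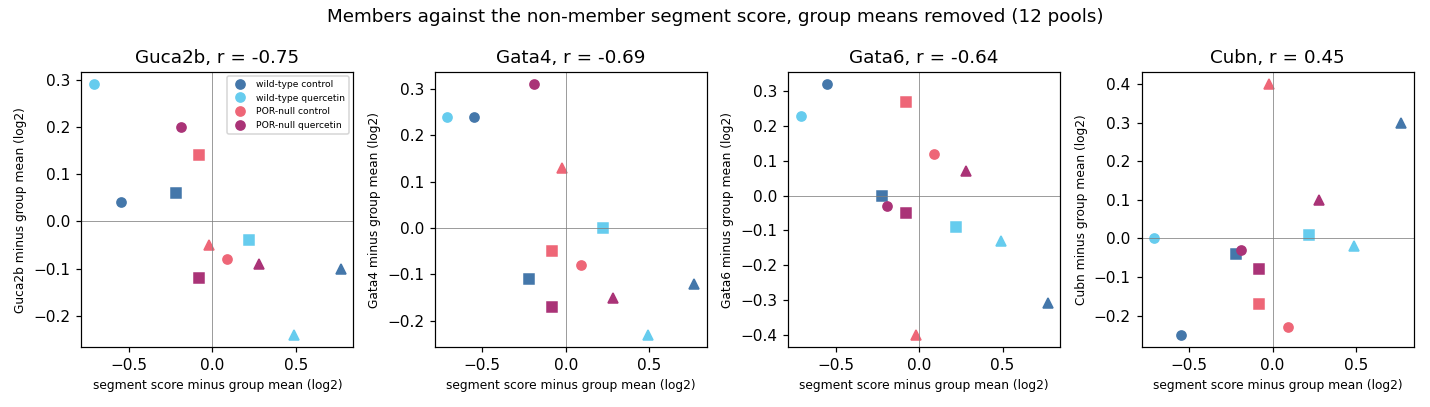
Guca2b, Gata4, Gata6 and Cubn (vertical axis, log2 minus group mean) against the segment score (horizontal axis, log2 minus group mean), with 1 point per pool coloured by group (circle 1, square 2, triangle 3) and r in each title. Points of Guca2b, Gata4 and Gata6 run from upper left to lower right (r = -0.75, -0.69 and -0.64), and Cubn has r = 0.45.

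Between members, 36 pairs were compared in the same way, 21 with r above 0, and none passed after adjustment (smallest adjusted p = 0.369, exact permutation). The lowest r was that of Gata6 and Cubn at -0.84 (exact permutation p = 0.052, adjusted 0.369; rho = -0.71, exact permutation p = 0.062; -0.68 without the 2 farthest pools), with POR-null control pool 3 the lowest of the 12 pools in Gata6 and the highest in Cubn. Before adjustment 3 pairs had p under 0.05. They were Osr2 with Hnf4a (r = 0.75, exact permutation p = 0.022), Gata4 with Guca2b (r = 0.75, exact permutation p = 0.025) and Cdx2 with Hnf4a (r = 0.45, exact permutation p = 0.046), each with an adjusted p of 0.369. The related genes Cdx1 and Cdx2 had r = 0.78 (exact permutation p = 0.16), Gata4 and Gata6 0.25 (exact permutation p = 0.41) and Guca2a and Guca2b 0.34 (exact permutation p = 0.24).

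**Figure D4:**
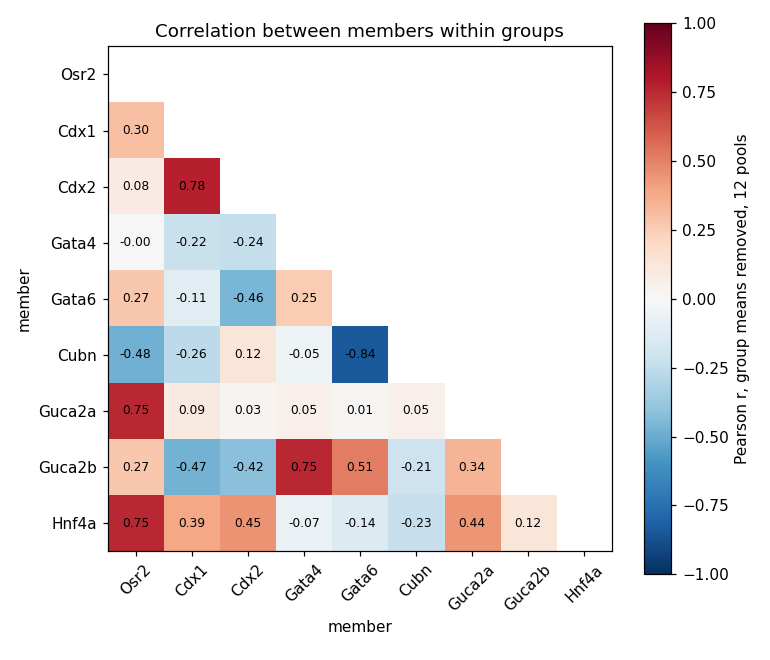
Pearson correlations between members after removal of group means (12 pools, 1 probe set per gene), as a lower triangle coloured from -1 (blue) to 1 (red). The lowest value is -0.84 for Gata6 and Cubn and the highest 0.78 for Cdx1 and Cdx2, and no pair passed after adjustment over 36 pairs.

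Genes most like each member within groups were looked up among 7257 genes with a mean of at least 6. The measure was r over 12 pools after removal of group means, with no test. They were Lgmn, Trappc1 and Ciao1 for Osr2 (0.91 to 0.93), Rps19, Arhgap35 and Sarnp for Cdx1 (0.90 to 0.92), and Nfkbia, Tbxas1 and Banp for Cdx2 (0.90 to 0.92). For the GATA factors they were Slc25a36, Acat1 and Ciao2a for Gata4 (0.88 to 0.95) and Lss, Tbxa2r and Wtap for Gata6 (0.92 to 0.96). For the effector genes they were Plbd1, Xrcc1 and Paqr7 for Cubn (0.93 to 0.95), Gtf3c6, Rnf141 and Pnliprp2 for Guca2a (0.92 to 0.94), and Trim32, Get4 and Pkm for Guca2b (0.93 to 0.96). Dok4, Lpp and Tmem160 were most like Hnf4a (0.93 to 0.95). The 9 members were left out of the genes searched, so none could appear as most like another. Each r is among the highest of 7257 values over 12 pools, so its size is partly set by the search. With group means kept, r of the same pairs ran from -0.17 (Trappc1 and Osr2) to 0.94 (Dok4 and Hnf4a).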

How the data were processed

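Log2 intensities per probe set were used as deposited. MAS5 and RMA are both named in the submitters' processing notes, and their role is not given in the sources used. The array medians lay close together, so the arrays were not normalised again. Of 22690 probe sets, 64 controls were left out. By the platform annotation, 20380 of the rest have a single gene symbol, 691 have several and 1555 have none, and members were matched on single symbols. Group means of all 12 arrays were fitted in limma 3.58.1 under R 4.3.3 (degrees of freedom 8 residual, 6.75 prior), two-sided, with Benjamini-Hochberg adjustment over 22626 probe sets and a threshold of 0.05. Values are log2 differences ± SE, and group levels are means ± SD. Correlations and figures were made with Python 3.11.15, on the probe set of a gene with the highest mean. The members, gene lists and tests were chosen with earlier results of these data known. From each pathway and segment list up to 3 genes with the largest moderated statistic in a comparison were named, and for each member the 3 genes most like it. Sequences are from RefSeq, with promoter windows of 5 of 9 members used. Those of Osr2, Gata4, Cdx1 and Gata6 were not used here. The labels used here give no scan date or other batch. With 3 pools per group the p-values measure the spread between pools of 3 mice, and the number of arrays limits the precision. The pipeline was tested on simulated data. Alternatives were arrays centred on the median or quantile-normalised, only probe sets of mean log2 6 or more, the compared arrays alone, a trend and robust variance, a replicate block, the segment score as covariate, averaged probe sets of a gene, Spearman correlation and each pool left out. For correlations with the segment score, distal markers without bile acid genes were also used. A fit without the 3 pools highest in smooth muscle markers was added after seeing the data.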

Additional observations from a re-analysis of the deposited data

Results flagged for a closer look

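Osr2 had a genotype difference of opposite sign on the 2 diets. POR-null minus wild-type was 0.58 on the control diet, with every POR-null pool above every wild-type pool, and -0.31 on quercetin, with every POR-null pool below. Cubn (1452270_s_at) had quercetin differences of opposite sign in the 2 genotypes, 0.63 in wild-type and -0.50 in POR-null pools, again with no overlap of pools in either. Whether these effects differ was not tested for the members, since the genotype comparisons were in view when they were chosen. As a description, the difference of the quercetin effects between genotypes was -0.88 ± 0.15 for Osr2 and -1.14 ± 0.21 for Cubn, and 0 of 22626 probe sets passed limma's adjusted threshold in that comparison (1141 had an unadjusted p under 0.05). Each pair of values shares groups of pools.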

How the results depend on the processing

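The count of member probe sets called for quercetin in wild-type pools was 1, and 0 both with median centring and with the segment covariate. It ran from 0 to 1 when single pools were left out, being 0 without any 1 of wild-type control pools 1 to 3, wild-type quercetin pools 2 and 3, POR-null control pool 1 and POR-null quercetin pool 2. The cause was not tested. The counts for quercetin in POR-null pools and over both genotypes stayed 0 under all alternatives run. With the replicate number as a block, 1 pair of members passed in place of 0, and the counts of called probe sets did not change. The pair was Osr2 and Guca2a (r = 0.83, permutation adjusted p = 0.0278, in a range of 0.0278 to 0.698 over alternatives). The relabelling within groups took no account of the replicate number, so permutation p-values with the block are not exact and this pass is not reliable. Over probe sets of mean log2 6 or more, correlations of deviations were -0.165 to 0.229 for equal numbers and -0.33 to 0.321 for different ones. The mean over the distal markers, however, rose from pool 1 to pool 3 in each group. Their mean centred levels were -0.82, -0.49 and 0.23 in wild-type control and -0.08, 0.53 and 0.66 in wild-type quercetin pools. They were 0.05, 0.08 and 0.26 in POR-null control and -0.26, -0.24 and 0.09 in POR-null quercetin pools. Of these markers Fabp6 differed most between POR-null pools (8.73, 8.30 and 10.33 on the control diet, 6.69, 7.30 and 9.57 on quercetin). Not all rose there, and Mep1a had 11.09, 11.19 and 11.06 on the control diet and 11.18, 10.93 and 11.08 on quercetin. With the block, r with the score was -0.52 for Guca2b and -0.54 for Gata4 (permutation adjusted p = 0.300 for both, not exact). For the segment score, 1 member passed with quantile normalization and 2 with the mean of all probe sets, in place of 0. Under the block, Gata4 with Gata6 turned to -0.28 and Cubn with the score to -0.22, and Hnf4a with the score turned to -0.11 with the mean of all probe sets and -0.07 with Spearman's rho.

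With the segment covariate, quercetin differences in wild-type pools turned to 0.26 (1418863_at) and 0.32 (1418864_at) for Gata4, 0.20 (1425463_at) and 0.24 (1425464_at) for Gata6 and 0.07 for Guca2b, and in POR-null pools to -0.05 for Guca2b. Without the 3 pools highest in smooth muscle markers, the POR-null differences of Gata4 1418863_at and Guca2b were -0.10 and -0.12. Leaving out single pools, wild-type quercetin differences ran from -0.20 to 0.04 and -0.26 to 0.09 for Gata4 1418863_at and 1418864_at, -0.39 to 0.01 and -0.39 to 0.07 for Cdx2 1422074_at and 1422075_at, and -0.29 to 0.03 for Gata6 1425464_at. POR-null differences ran from -0.06 to 0.18 and -0.20 to 0.07 for the Gata4 probe sets, -0.01 to 0.10, -0.13 to 0.06 and -0.10 to 0.03 for Hnf4a 1427000_at, 1427001_s_at and 1450447_at, and -0.08 to 0.09 for Guca2b. Correlations with the score ran from -0.13 to 0.19 for Osr2, -0.08 to 0.68 for Cdx1, -0.01 to 0.66 for Cdx2, -0.01 to 0.48 for Guca2a and -0.16 to 0.46 for Hnf4a. None of these differences or correlations was past its threshold under any setting that turned it. Excluding the comparisons with a pool left out, 606 of 631 recomputed differences kept their direction and call or, untested, moved by less than the spread between pools.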

Other observations

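Markers of other cell types were looked at beside the members, and none was called by limma in any diet comparison. For quercetin in wild-type pools the median log2 difference was 0.07 over 6 enterocyte markers, 0.10 over 6 goblet markers, 0.09 over 7 enteroendocrine markers, 0.14 over 6 crypt markers, -0.15 over 8 smooth muscle markers and -0.05 over 6 fibroblast markers, against 0.02 over 12393 genes. It was 0.12 over 6 pancreatic acinar markers and -0.01 over 4 colonocyte markers. The mean centred level of enterocyte markers stayed between -0.05 and 0.07 in all pools.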
